A study of Homo sapiens with 2 samples.

Results

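The genes described here encode 10 monocyte attractants, colony-stimulating factors and related signals. The colony-stimulating factors are CSF1, CSF2 and CSF3, and IL34 is the second ligand of the CSF1 receptor. The others are the chemokines CCL2, CCL5, CCL7, CCL20 and CX3CL1, and the cytokine MIF. All 10 genes were taken by exact gene name from a table of 60978 genes, and each name matched a single row. The study's title concerns exosomes of M1 macrophages and CEL acting on triple-negative breast cancer, but the RNA analysed here came from the cancer cells alone. MDA-MB-231, an established human breast cancer line, was cultured for 24 h with 1 µM of the treatment called CEL in the labels (the CEL library) or for 24 h without it (the Control library). The labels do not say whether the Control culture received a vehicle. Each group is 1 library, so nothing below was checked in replicates, and "higher" or "lower" compares these libraries and not the conditions. In RNA from a whole culture, fewer cells making a transcript and less of it per cell cannot be told apart.

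Tumours recruit blood monocytes with chemokines, short secreted proteins that draw cells up a gradient through G protein-coupled receptors, and colony-stimulating factors then promote the survival, growth and maturation of the recruited cells. CCL2 and CCL7 act through CCR2, the main receptor of classical monocytes, CCL5 through CCR1, CCL20 through CCR6 and CX3CL1 through CX3CR1. CSF1 and IL34 share the receptor CSF1R, which macrophages need to survive, whereas CSF2 (GM-CSF) and CSF3 (G-CSF) act on wider myeloid and on neutrophil lineages. Several of these genes are textbook targets of NF-kappaB, and their mRNAs often carry AU-rich elements that mark them for rapid decay.

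The libraries held 17199398 reads in genes for CEL and 14821148 for Control, with 21685 and 22105 named genes above 0. Levels are FPKM, reads the authors scaled to gene length and library total, and whole reads were recovered from them. Mitochondrial genes took 4.06% of the CEL reads and 7.14% of the Control reads. The culture matched its label in part of the markers: VIM, CD44 and EGFR were at 350, 1024 and 156 FPKM in CEL and at 399, 928 and 123 FPKM in Control. ESR1 and PGR were at 0 in both, and ERBB2 was at 48.8 FPKM in CEL and 71.7 FPKM in Control. The epithelial keratins were also high, KRT8 at 647 FPKM in CEL and 545 FPKM in Control and KRT18 at 231 and 145 FPKM. EPCAM was at 8.97 FPKM in CEL and 17.2 FPKM in Control, and CDH1 at 0.183 and 0.791 FPKM. Of 12 monocyte and macrophage markers, 2 reached 1 FPKM in a library (CD14 and CSF1R), the 12 summed to 3.85 FPKM in CEL and 4.87 FPKM in Control, and LYZ, CD163, FCER1G, LST1 and AIF1 had 0 reads in both.

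Among the 9 genes other than MIF, whose 0 is not read as a level, CSF1 had by far the highest FPKM and CSF2 showed the largest difference between the libraries. The rule for a difference was 2-fold after 1 FPKM had been added to both levels, that is, a log2((CEL FPKM + 1)/(Control FPKM + 1)) of 1 or more in size. It was applied to genes that reached 1 FPKM in either library. By this rule CSF2, CX3CL1 and CCL2 were lower in CEL and none of the 10 was higher. Across all 13745 named genes tested, 3.24% were lower and 2.70% were higher, with a median log2 fold of 0.00. Of the 10 genes, 6 passed the filter, 3 of them (CSF3, CCL2 and CX3CL1) through the Control library alone and 1 (CCL5) through the CEL library alone, so their share past the rule carries the choice made by the filter. The other 4, IL34, CCL7, CCL20 and MIF, stayed below 1 FPKM in both libraries. The balance of all genes moved with the scale: 459 were higher and 714 lower on the TPM scale, and 202 and 712 after the trend with gene length was subtracted, against 371 and 446 on the deposited scale.

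**Figure D1:**
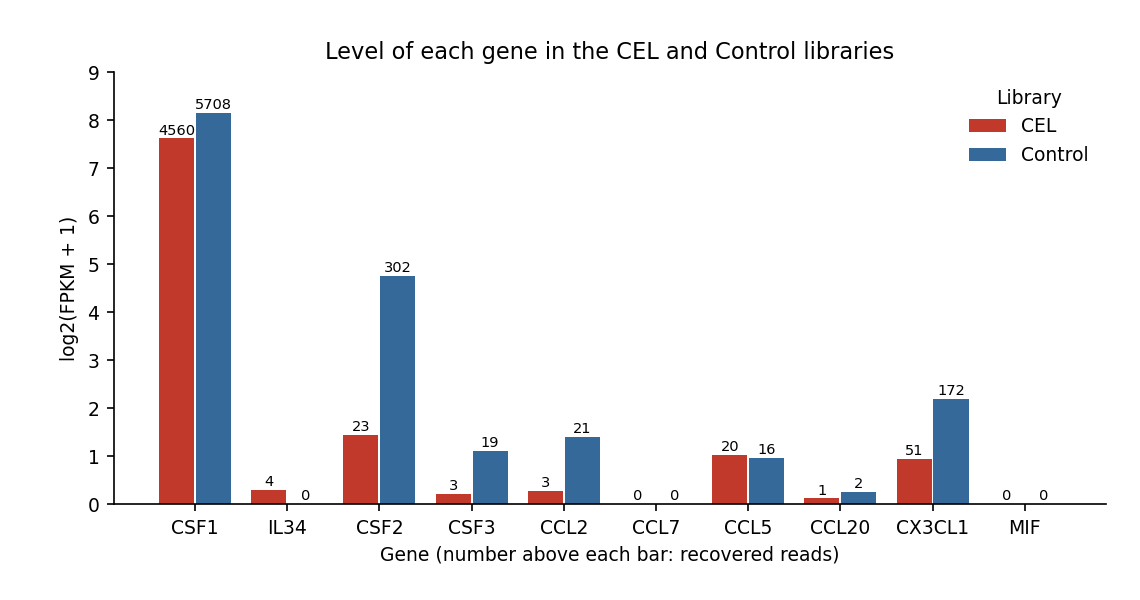
Level of the 10 genes on the log2(FPKM + 1) scale in the CEL library (left bar of each pair) and the Control library (right bar), with the recovered reads above each bar. CSF1 stands above the other measured genes in both libraries, and CSF2 has 23 reads in CEL against 302 in Control.

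Among the ligands of CSF1R, CSF1 (ENSG00000184371; GRCh38 chromosome 1, 109910242 to 109930992), macrophage colony-stimulating factor, stood at 195 FPKM (4560 reads) in CEL and 283 FPKM (5708 reads) in Control. It ranked 586 among named genes by FPKM in CEL and 324 in Control. The ratio of CEL to Control was 0.688, with an exact 95% counting interval of 0.662 to 0.716, so the difference was outside counting error yet within the 2-fold rule (log2 fold −0.54). Such intervals, here and below, cover counting error only, and over all genes tested 29.1% had an interval wholly under 1 and 29.9% wholly above 1. The deposited gene length of CSF1 is 1359 bases, whereas its longest transcript in GENCODE 29 has 4210 bases, and a longer length would give a lower FPKM in both libraries alike. IL34 (ENSG00000157368; chromosome 16, 70579895 to 70660682) had 4 reads (0.227 FPKM) in CEL and 0 in Control. A count of 0 allows up to 3 reads (0.198 FPKM), and the CEL level of IL34 was 1.15 times that limit. Counting error in both libraries allows a ratio as low as 0.569, so no difference was detectable at this depth. CSF1R ligand RNA in both libraries was thus almost wholly that of CSF1.

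CSF2 (ENSG00000164400; chromosome 5, 132073789 to 132076170) encodes GM-CSF, which promotes the maturation and activation of granulocytes, macrophages and dendritic cells. It had 23 reads (1.70 FPKM) in CEL and 302 reads (25.9 FPKM) in Control, a ratio of 0.0656 with a counting interval of 0.0410 to 0.10 and a log2 fold of −3.32. It ranked 11734 by FPKM in CEL and 4989 in Control. CSF1 and CSF2 were therefore set very differently against each other: at the deposited lengths, the FPKM of CSF1 was 115 times that of CSF2 in CEL and 11 times in Control. A longer length for CSF1 would lower both multiples alike. Over the summed FPKM of the 9 genes other than MIF, at the deposited lengths, CSF2 made up 0.851% in CEL and 8.16% in Control, and CSF1 made up 97.8% and 89.5%. CSF3 (ENSG00000108342; chromosome 17, 40015361 to 40017813), the neutrophil growth factor G-CSF, had 3 reads (0.156 FPKM) in CEL and 19 reads (1.15 FPKM) in Control. Its ratio of 0.136 had a counting interval of 0.0258 to 0.462, but its log2 fold of −0.89 fell short of the 2-fold rule, with the added 1 FPKM close to its Control level. It passed that rule with a pseudocount of 0.1 FPKM (−2.29 on the log2 scale), on the TPM scale (−1.15) and without the length trend (−1.01).

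**Figure D2:**
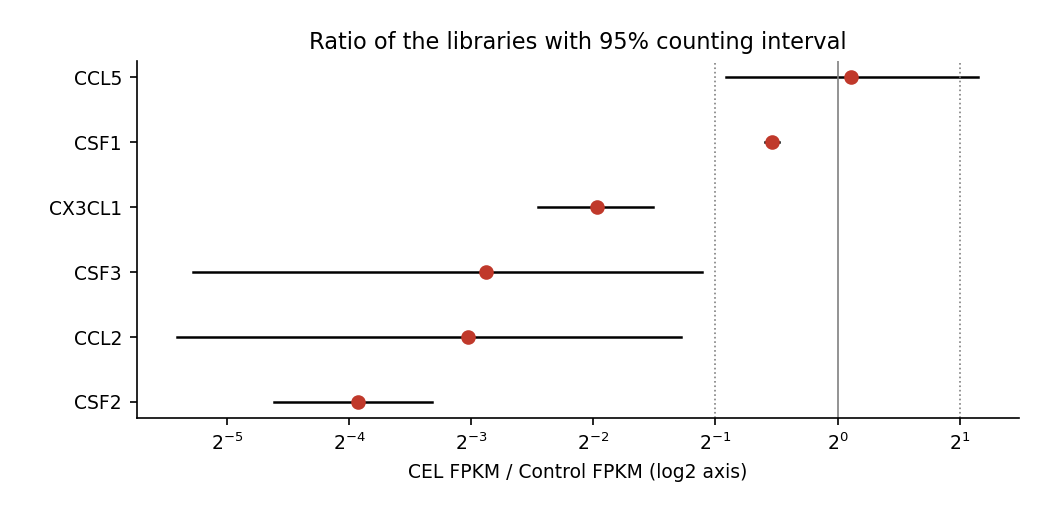
Ratio of CEL FPKM to Control FPKM on a log2 axis for the 6 genes that passed the filter, with exact 95% counting intervals as lines; the solid vertical line marks equal levels and dotted lines mark 2-fold. The intervals of CSF2, CCL2, CSF3, CX3CL1 and CSF1 lie below 1 and that of CCL5 spans it.

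The 2 members with the most pentamers in their transcripts' ends are shown because their mRNAs are classic examples of AU-rich decay signals. The window of 30 bases with the most AU-rich pentamers (ATTTA in DNA letters, capitals, overlapping copies counted) is given from GENCODE 29 on GRCh38, plus strand, at chr5:132076072-132076101 for CSF2 and chr17:40016975-40017004 for CSF3.
CSF2: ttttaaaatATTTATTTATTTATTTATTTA
CSF3: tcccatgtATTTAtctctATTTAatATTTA
The CSF2 window held 5 pentamers of the 8 in its 3′ UTR of 318 bases, and the CSF3 window held 3 of 7 in 854 bases. Per kilobase of 3′ UTR this was 25.2 pentamers for CSF2 and 8.20 for CSF3, against a median of 1.71 over the 11438 protein-coding genes that reached 1 FPKM in either library. Fewer per kilobase were found in 99.9% of those genes than in CSF2 and in 98.1% than in CSF3. CCL20 had 3 pentamers (6.24 per kilobase), CCL2 and CCL7 had 1 each, CX3CL1 had 2, and IL34, CCL5 and MIF had 0. CSF1 had 4 in a much longer 3′ UTR of 2154 bases, which is 1.86 per kilobase. A pentamer count describes the annotated transcript and is not a measurement of decay in these cells.

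**Figure D3:**
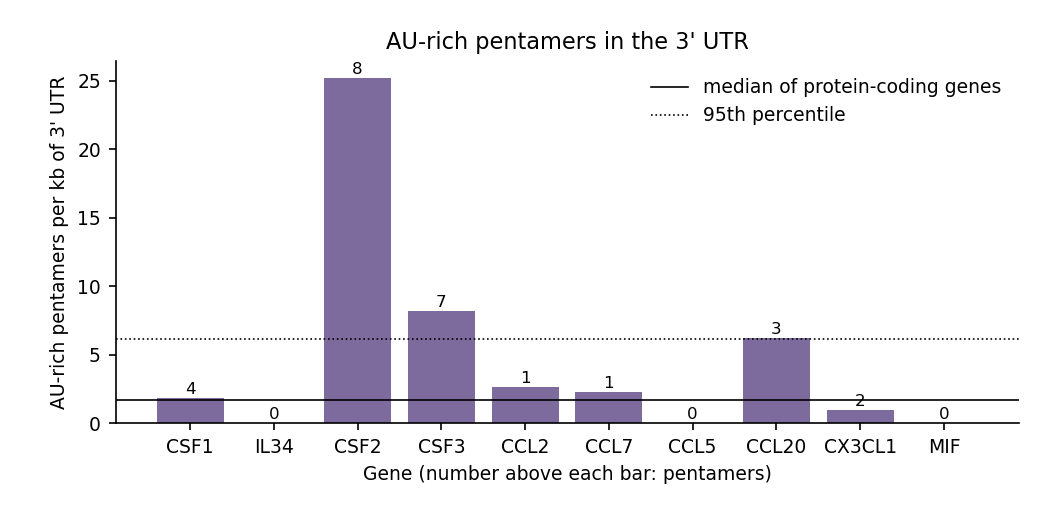
AU-rich pentamers per kilobase of annotated 3′ UTR for the 10 genes, with the number of pentamers above each bar; the solid line is the median and the dotted line the 95th percentile of the protein-coding genes that reached 1 FPKM. CSF2 stands at 25.2 per kilobase with 8 pentamers, and CSF3 at 8.20 with 7.

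The measured RNAs of genes that act in binding or decay of such mRNAs showed no 2-fold difference, and protein level and activity were not measured. Of 18 listed genes of AU-rich mRNA binding and decay, 17 were measured at 1 FPKM or more, 0 were higher and 0 lower by the rule, and the median log2 fold was 0.04. The widest differences were within 2-fold and were chosen after their values were seen. ZFP36L1, a zinc-finger protein that promotes decay, was at 158 FPKM in CEL and 92.9 FPKM in Control. ZFP36L2, of the same family, went the other way, at 9.75 FPKM in CEL and 16.5 FPKM in Control. The RNase ZC3H12A (Regnase-1), which degrades inflammatory mRNAs, was at 14.0 FPKM in CEL and 26.2 FPKM in Control.

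Of the ligands of CCR2, CCL2 was detected at a low level and CCL7 was not detected. CCL2 (ENSG00000108691; chromosome 17, 34255218 to 34257203), the main monocyte chemoattractant, had 3 reads (0.201 FPKM) in CEL and 21 reads (1.64 FPKM) in Control. The ratio was 0.123 with a counting interval of 0.0235 to 0.412, and the log2 fold was −1.13. CCL7 (ENSG00000108688; chromosome 17, 34270221 to 34272242), encoded close to CCL2, had 0 reads in both libraries, which allows up to 0.239 FPKM in CEL and 0.277 FPKM in Control. No exonic base of either gene is shared with another annotated gene. Per length, CCL2 stood far below CSF1 in both libraries.

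CCL5 (ENSG00000271503; chromosome 17, 35871491 to 35880793), which attracts T cells and monocytes, was at a similar low level in both libraries. It had 20 reads (1.03 FPKM) in CEL and 16 reads (0.954 FPKM) in Control, a ratio of 1.08 with a counting interval of 0.530 to 2.22. This interval spans 1 and reaches past 2-fold higher, so no difference was detectable at this depth. CCL20 (ENSG00000115009; chromosome 2, 227805739 to 227817564), the ligand of CCR6, had 1 read in CEL (0.0849 FPKM) and 2 reads in Control (0.197 FPKM), both under the 3-read limit, and no fold was formed.

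CX3CL1 (ENSG00000006210; chromosome 16, 57372477 to 57385044), fractalkine, is made as a membrane-bound adhesion molecule and released by the proteases ADAM10 and ADAM17. It had 51 reads (0.915 FPKM) in CEL and 172 reads (3.58 FPKM) in Control. The ratio was 0.256 with a counting interval of 0.183 to 0.351, and the log2 fold was −1.26. Its sheddases, named after their values were seen, were within 2-fold: ADAM10 was at 236 FPKM in CEL and 319 FPKM in Control, and ADAM17 at 25.6 and 22.9 FPKM.

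MIF (ENSG00000240972; chromosome 22, 23894383 to 23895227), a cytokine that signals through CD74 and that most cell types make abundantly, was listed at 0 in both libraries. Of the 730 annotated exonic bases in its deposited span, 94.1% are also exonic in another gene. On the same strand 48.9% are shared, with AP000350.4, and MIF-AS1 lies on the opposite strand. Both of those genes were listed at 0 in both libraries too. Among protein-coding genes with 90% or more of their exonic bases shared with another gene, 456 of 501 (91.02%) were listed at 0 in both libraries. This was so for 234 of 600 (39%) with 50% to under 90% shared and for 3345 of 11067 (30.2%) with no shared base. Genes with some but under 50% shared are not given as a class. Over all 19881 protein-coding genes, 5036 (25.3%) were listed at 0, a lower share than with no shared base. Each class given had a higher share at 0 than all protein-coding genes, so the class not given had a lower one. Counted over all its annotated exonic bases, which start upstream of the deposited span, MIF shares 61.9% on either strand and 32.2% on the same strand. The share on either strand places it in the class of 50% to under 90%. Whether overlap sets its value was not tested. How the counting treated strand and shared bases is not stated, so the 0 of MIF is not read as a level. DDT, its homologue, named after its value was seen, was listed at 0 in both libraries with 37.8% of its exonic bases shared. DDT therefore falls among genes with some but under 50% shared, the class not given, whose share at 0 lay under 25.3%. The MIF receptor CD74 was at 267 FPKM in CEL and 364 FPKM in Control.

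**Figure D4:**
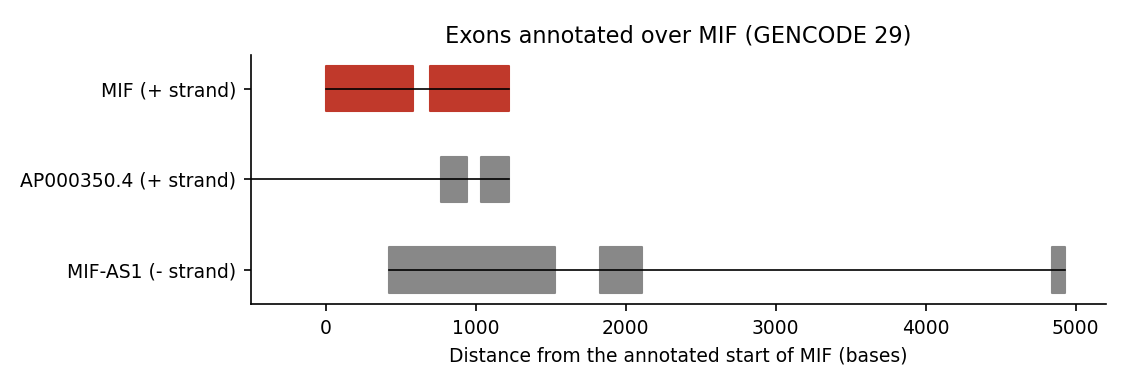
Exons annotated in GENCODE 29 over MIF, AP000350.4 and MIF-AS1, as boxes against the distance in bases from the annotated start of MIF; lines are introns, and AP000350.4 extends beyond the left edge. Both other genes have exons over the second exon block of MIF, and MIF-AS1 also reaches into the first.

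Promoters were looked at because NF-kappaB and AP-1 are known regulators of several of these genes. The RefSeq promoter table (GRCh38.p14) held CSF2, CCL7, CCL20 and MIF, and the 250 bases upstream of each start were searched on both strands. The letters sought were TATAAA (found in 10.7% of the 35116 promoters in the table), TGANTCA, a loose form of the AP-1 motif (6.57%), TGACNNNGC, a core of the NRF2 element (10.9%), and the NF-kappaB consensus (5.21%). CCL20 held TATAAA with its first base 29 bases upstream of the start and 1 match to the NF-kappaB consensus, on the minus strand, 79 bases upstream. CCL7 held TATAAA 30 bases upstream and TGANTCA 51 bases upstream, there as TGATTCA, which is not the AP-1 consensus itself. CSF2 and MIF held none of the 4 in this window, from which nothing follows about the factors. CSF2 and CCL20 are printed as a gene with 302 reads in Control beside a gene with 2; capitals mark matches, and both lie on the plus strand, at chr5:132073539-132073788 and chr2:227813592-227813841.
CSF2: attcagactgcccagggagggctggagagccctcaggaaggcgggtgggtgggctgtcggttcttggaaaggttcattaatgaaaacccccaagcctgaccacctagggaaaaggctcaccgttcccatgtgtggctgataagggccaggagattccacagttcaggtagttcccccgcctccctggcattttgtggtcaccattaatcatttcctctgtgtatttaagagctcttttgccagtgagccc
CCL20: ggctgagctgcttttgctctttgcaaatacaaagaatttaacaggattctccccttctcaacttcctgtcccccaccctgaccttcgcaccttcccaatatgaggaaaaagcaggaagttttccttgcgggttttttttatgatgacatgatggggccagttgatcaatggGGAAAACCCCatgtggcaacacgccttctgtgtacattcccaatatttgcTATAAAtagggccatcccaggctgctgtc

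Within 100 kb of a member, 23 other named genes reached 1 FPKM in either library, of which 1 was lower and 0 higher by the rule, near the 3.24% and 2.70% of all genes. That gene was RDM1, a gene named for an RAD52 motif, 37273 bases from CCL5, with 14 reads (1.03 FPKM) in CEL and 59 reads (5.03 FPKM) in Control. Apart from the members themselves, no gene within this distance of CSF2, CCL2 or CCL7 reached 1 FPKM, so the differences of CSF2 and CCL2 have no local comparison. The widest differences beside CX3CL1 and CSF3 were within 2-fold and were chosen after their values were seen. Beside CX3CL1, CIAPIN1 was at 57.7 FPKM in CEL and 39.5 FPKM in Control, and DOK4 at 7.66 and 11.5 FPKM. Of the 7 genes beside CSF3, the widest was NR1D1, at 5.31 FPKM in CEL and 2.33 FPKM in Control. Beside CSF1, AHCYL1 was at 123 FPKM in CEL and 111 FPKM in Control.

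The receptors were measured in the same cancer cells. Of 17 listed receptors, 5 reached 1 FPKM, 0 passed the rule and the median log2 fold was −0.19. These were CSF1R (1.81 FPKM in CEL and 2.78 FPKM in Control), CSF2RA (40.5 and 35.0 FPKM), CD74, CXCR4 (0.967 and 1.24 FPKM) and the atypical receptor CCRL2 (47.1 and 40.3 FPKM), named after their values were seen. CSF2RA encodes the ligand-binding chain of the GM-CSF receptor. Its signalling partner CSF2RB, named after its values were seen, had 0 reads in both libraries. Of the receptors below 1 FPKM, also named after their values were seen, CCR2 had 0 reads in CEL and 3 in Control, CX3CR1 had 3 and 0, and CCR6 had 0 in both.

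Most other CC and XC chemokines were not detected. Of 24 with a row in the table, 18 had 0 reads in both libraries and 2 reached 1 FPKM. CCL26 (eotaxin-3), which attracts eosinophils, was higher, with 28 reads (2.65 FPKM) in CEL and 3 reads (0.329 FPKM) in Control, a ratio of 8.04 with a counting interval of 2.48 to 41.3. Its log2 fold of 1.46 was 0.95 after the trend with gene length was subtracted and 0.52 with a pseudocount of 5 FPKM, both within the rule, and a filter at 5 FPKM left it untested. CCL28, a mucosal chemokine named after its values were seen, was within 2-fold at 9.11 FPKM in CEL and 11.5 FPKM in Control. Among 12 other haematopoietic growth factors, 4 reached 1 FPKM, with a median log2 fold of −0.10. IL11, a cytokine of the IL6 family, was lower at 3.85 FPKM in CEL and 9.14 FPKM in Control, and its log2 fold of −1.06 was −0.68, within the rule, with a pseudocount of 5 FPKM. The others, named after their values were seen, were within 2-fold: LIF, another IL6-family cytokine, at 24.0 FPKM in CEL and 19.5 FPKM in Control, the stem cell factor KITLG at 16.8 and 15.9 FPKM, and IL15 at 3.52 and 4.46 FPKM. IL3, which lies in the same cytokine cluster as CSF2 and was also named after its values were seen, had 0 reads in both.

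Of 17 other factors known to attract or instruct macrophages, 13 were measured, 0 were higher and 0 lower by the rule, and the median log2 fold was 0.22. The angiogenic factor VEGFA was at 153 FPKM in CEL and 102 FPKM in Control, and TNFSF10 (TRAIL), a death ligand, at 131 FPKM in CEL and 213 FPKM in Control, both chosen after their values were seen.

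Of 21 genes of shedding, processing and ligand binding, 15 were measured, with 2 higher and 1 lower and a median of 0.04. The higher genes were MMP1 and MMP3, matrix proteases that can trim CC chemokines such as CCL2 and CCL7. MMP1 was at 56.6 FPKM in CEL and 9.93 FPKM in Control, and MMP3 at 47.9 FPKM in CEL and 7.19 FPKM in Control. The lower gene was SDC4, a heparan sulphate proteoglycan of the cell surface, at 78.9 FPKM in CEL and 178 FPKM in Control.

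Of 35 transcription factors and regulators known to act on these ligand genes, 32 were measured, with 3 lower and 0 higher and a median of −0.17. The lower genes were NFKBIA, the inhibitor IkappaB-alpha that NF-kappaB itself induces (40.7 FPKM in CEL and 152 FPKM in Control), BCL3, a nuclear IkappaB protein (31.0 and 70.5 FPKM), and ELF3, an epithelial ETS factor (6 reads in CEL and 49 in Control). ELF3 reached 1 FPKM in Control alone, its log2 fold of −1.37 was −0.46 with a pseudocount of 5 FPKM, and a filter at 5 FPKM left it untested. All 5 NF-kappaB subunit genes, named after their values were seen, were within 2-fold. RELB was at 14.3 FPKM in CEL and 22.9 FPKM in Control, with a ratio of 0.622 (counting interval 0.539 to 0.716). NFKB2 was at 59.6 FPKM in CEL and 88.7 FPKM in Control, with a ratio of 0.672 (0.632 to 0.713). The interval of NFKB1, at 34.2 FPKM in CEL and 40.3 FPKM in Control, also lay below 1, that of RELA, at 151 and 125 FPKM, lay above 1, and that of REL, at 1.16 and 1.14 FPKM, spanned it.

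**Figure D5:**
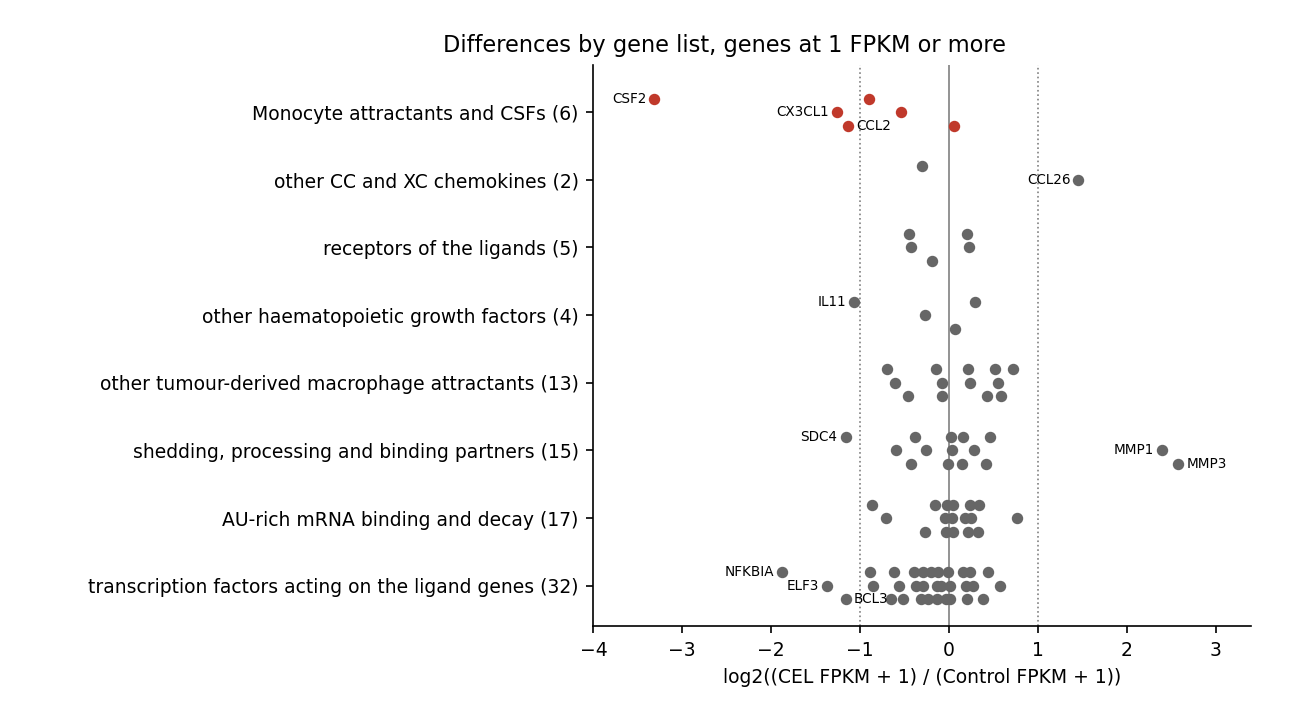
Log2((CEL FPKM + 1)/(Control FPKM + 1)) of each gene that reached 1 FPKM in either library, by gene list, with the number measured in brackets; dotted lines mark the 2-fold rule and genes past it are named. CSF2 lies at −3.32, and the other lists have between 0 and 3 genes past the rule.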

How the data were processed

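The authors deposited FPKM for 2 libraries, 1 per group, with 1 gene length per gene. HTSeq 0.5.4 and GRCh38 are named in the submitters' processing notes; the aligner, annotation release and strand setting were not given in the sources used here. FPKM times length falls on multiples of a fixed step per library, from which whole reads were recovered at 1 length shared by both libraries, to a relative tolerance of 1e-06. Ratios carry exact conditional binomial 95% intervals from these reads, and a count of 0 allows up to 3 reads. Called genes passed log2((CEL FPKM + 1)/(Control FPKM + 1)) of 1 in size at 1 FPKM or more in a library. The 354 unnamed genes, with 0.265% of the CEL reads and 0.298% of the Control reads, were not used. With 1 library per group no test was possible. The members and the 7 gene lists were chosen with earlier results of these data known. The genes named are the 10 members, list genes past the rule (up to 4 per list), neighbours within 100 kb, cell type markers and the genes that overlap MIF; others are said to be chosen after their values were seen, and some listed genes are not reported here. GENCODE 29 gave exon overlap and 3′ UTRs, through 58437 matched identifiers of 60624, all 10 members among them. Its coordinates differ from the deposited ones for CSF2, CX3CL1 and MIF. The steps were tested on simulated data. Python 3.11.15, numpy 2.4.6, pandas 2.3.3, scipy 1.17.1 and statsmodels 0.14.6 were used, and 8 alternatives were tried.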

Additional observations from a re-analysis of the deposited data

How the results depend on the processing

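CSF2 was lower by the 2-fold rule in every fit run, with log2 folds between −3.85 and −2.20 over the alternatives. The count of lower members, 3 on the deposited scale, was 1 with a pseudocount of 5 FPKM, where CX3CL1 stood at −0.54 and CCL2 at −0.35, and 1 with a filter at 5 FPKM, which left 2 members to test. It was 4, with CSF3, on the TPM scale, without the length trend, and where 0.1 FPKM was added. CSF1 stayed between −0.61 and −0.53. Over all genes the counts of higher and lower were 590 and 880 with a pseudocount of 0.1 FPKM, 110 and 85 with 5 FPKM, and 214 and 208 with a filter at 5 FPKM; lower genes were 714 on the TPM scale, and 202 were higher and 712 lower without the length trend, against 371 and 446. The higher count of other CC and XC chemokines was 0 with a pseudocount of 5 FPKM, a filter at 5 FPKM or no length trend, and the lower count of growth factors was 0 with a pseudocount of 5 FPKM. No paired analysis was possible because each group has 1 library. Depth limits CSF3 and CCL2, which rest on 3 reads in CEL, and CCL5, with 20 reads in CEL and 16 in Control.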
